A study of Mus musculus with 15 samples.

Results

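The comparison described here set D1 dendritic cells (DCs) given curdlan together with FK506 for 2 h against D1 cells given curdlan alone for 2 h. Its members were chosen by their labels and are 6 of the 15 arrays of the series, 3 in each group. D1 is a single long-term DC line from the spleen of C57BL/6 mice that depends on growth factors, here a fibroblast supernatant containing GM-CSF. All values therefore come from 1 cell line. Curdlan was given at 10 µg/ml, and FK506 was present throughout the culture in the first group only. The other arrays were nontreated (NT) cells, and cells given curdlan with FK506 or curdlan alone for 4 h, again 3 of each. Cells given FK506 without curdlan were not analysed here, so each difference shows what FK506 did while curdlan was also there. The labels call the 3 arrays of a group biological replicates. The sources used here do not say how they were cultured apart, so p-values measure only the spread between arrays. That spread was estimated within the groups over all 15 arrays, not from the 6 compared arrays alone. In bulk RNA, fewer cells expressing a gene and less RNA per cell cannot be told apart.

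Curdlan is a bacterial beta-glucan that binds dectin-1 (Clec7a), a C-type lectin receptor for fungal cell walls. Dectin-1 signals through Src kinases and Syk to phospholipase C and calcium, and calcium activates the phosphatase calcineurin. Calcineurin removes phosphates from the NFAT transcription factors, which then enter the nucleus and often bind DNA next to AP-1 factors. FK506 binds the immunophilin FKBP12 (Fkbp1a), and this complex blocks calcineurin. Dectin-1 also signals to NF-kB through Card9, a branch that does not need calcineurin. In T cells the same block prevents the production of interleukin 2, the basis of the use of FK506 against graft rejection.

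Expression was measured on Affymetrix Mouse Gene 1.0 ST arrays, and each value is a log2 signal made by robust multi-array averaging (RMA). The lower quartile, median and upper quartile of the gene means were 5.28, 6.76 and 9.12. Each difference is the mean with curdlan alone less the mean with curdlan and FK506, and a positive log2 difference thus stands for a lower level with FK506. A gene was called at a limma adjusted p (Benjamini-Hochberg) under 0.05 together with a fold of at least 1.5. Arrays of a group correlated at 0.995 to 0.999. The third curdlan 2 h array and the first NT array stood apart from the rest, with array quality weights of 0.119 and 0.0781 against 0.707 to 6.87 for the others, so the results were also computed without them. The conventional DC markers were present: Itgax, which encodes the integrin chain CD11c, had a mean of 12.2 in cells given curdlan with FK506 and 12.1 in cells given curdlan, and 1 of 15 markers, Xcr1, lay below the lower quartile. Flt3, the receptor for the DC growth factor Flt3 ligand, lay at 5.84 and 5.93 in these groups. Most macrophage markers were present as well, with Adgre1 (F4/80) at 11.7 in both groups. Cd14 lay lower, at 6.46 with FK506 and 7.01 without, and 1 of 7 markers, Vsig4, lay below the lower quartile. No DC, T cell, B cell, neutrophil, mast cell, fibroblast or erythroid marker was called. Calls were rare among all genes too, with 0.762% lower with FK506 and 0.361% higher. The summed linear signal of the 8 fibroblast markers was 594 to 619 with FK506, against 597 and 644 in the first pair of curdlan arrays. In the third curdlan array it was 837. That array also had the highest B cell, neutrophil, mast cell, erythroid, T cell and plasmacytoid DC sums of the curdlan arrays. For neutrophil markers this was 408 against 354 and 345. Its conventional DC and macrophage sums were the lowest of the curdlan arrays. The first NT array had 876 for fibroblast markers, against 640 and 641 in the other NT arrays. The arrays that stood apart also had higher medians over genes, 6.88 (curdlan) and 6.94 (NT), against 6.67 to 6.78 in the others. The SD over genes was lower in these arrays, 2.23 (curdlan) and 2.19 (NT), against 2.31 to 2.35. The pattern was thus not limited to the markers of other cell types, and whether other cells were present was not tested. The part of this pattern in the results below was not tested.

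With FK506, 152 of the 19937 genes tested were lower (0.762%) and 72 were higher (0.361%). The median absolute log2 difference was 0.88 among the lower genes and 0.73 among the higher genes. A fold of at least 2 was reached by 61 lower and 7 higher genes, and a fold of at least 4 by 14 lower genes and 0 higher ones. The median difference over all tested genes was 0.0279, and the middle 90% of genes lay between -0.25 and 0.24. The typical SE of a difference was 0.0768, the median over genes. In all 152 lower and all 72 higher genes the curdlan arrays did not overlap with the FK506 arrays. The same held for 2471 tested genes with a positive difference and 3220 with a negative one, called or not. Where it is given below for a called gene, non-overlap thus adds no support to the call. Without the third curdlan array 162 genes were lower and 62 higher, and 145 and 59 of these were among the genes called with all arrays. The split depended on the fold threshold and on the scaling of the arrays. With no fold threshold 616 genes were lower and 893 higher, so that lower genes were 40.8% of the calls. At a fold of at least 1.5 they were the larger part. Lower genes made up 67.9% of the calls as deposited, 55.6% (125 lower and 100 higher) after each array was centred on its median and 78.0% (184 lower and 52 higher) after centring on probe sets with no gene symbol.

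**Figure D1:**
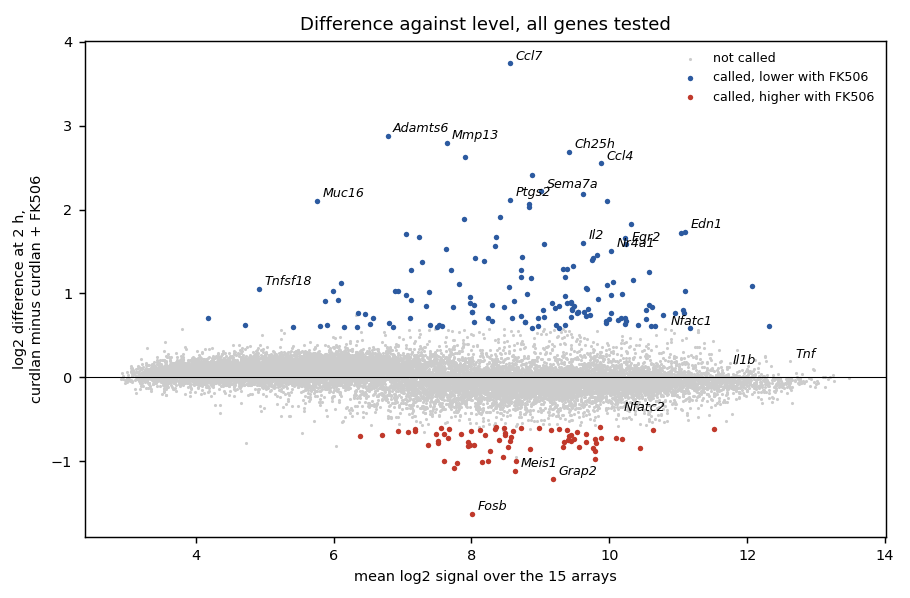
Each point is 1 of 19937 genes, with its mean log2 signal over the 15 arrays on the x axis and its log2 difference at 2 h, curdlan minus curdlan with FK506, on the y axis. The 152 genes lower with FK506 (blue) reach up to 3.75 on this scale, whereas the 72 higher genes (red) end at -1.63, and both lie over most of the range of signal.

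Chemokines, the secreted attractants of leukocytes, were the list with the most called members. Of 35 tested, 10 were lower with FK506 and 1 was higher, and their median difference was 0.19. Among all genes tested 0.762% were lower and 0.361% higher, and the counts of every list below stand against these shares. The chemokine with the widest gap was Ccl7, which attracts monocytes. Its log2 signal was 7.53, 7.59 and 7.62 in cells given curdlan with FK506, against 11.23, 11.34 and 11.40 in cells given curdlan and 7.34, 7.18 and 7.25 in NT cells. The groups given curdlan did not overlap, and the FK506 arrays lay close above the NT arrays. Ccl7 was 13.4-fold lower with FK506 (log2 difference 3.75, SE 0.0550, adjusted p = 1.17e-13). Ccl4, an attractant of monocytes and T cells, had 9.03, 9.05 and 9.15 with FK506 and 11.56, 11.65 and 11.67 without it, while NT cells had 6.68, 6.98 and 6.71. Here the FK506 arrays lay between those of NT cells and those of cells given curdlan. Ccl4 was 5.86-fold lower with FK506, and the related chemokine gene Ccl3 1.53-fold lower. Ccl3 had 12.41, 12.40 and 12.46 with FK506 and 13.07, 13.15 and 12.89 without it, both far above the 10.26, 10.65 and 10.72 of NT cells. The call of Ccl3 was lost without the second curdlan array, at a log2 difference of 0.55.

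Ccl1, a ligand of Ccr8, was 3.17-fold lower with FK506 (log2 difference 1.67, SE 0.0843, adjusted p = 2.68e-08), at 9.81, 9.68 and 9.97 with FK506, 11.55, 11.61 and 11.31 with curdlan alone and 6.20, 6.01 and 6.07 in NT cells. Most of its distance from NT cells was thus still present with FK506. Ccl2, a second monocyte attractant, behaved otherwise. It was already at 11.91, 11.96 and 11.91 in NT cells, and cells given curdlan with FK506 had 11.93, 11.85 and 11.95, against 13.03, 13.06 and 12.91 for cells given curdlan alone. Ccl2 was 2.13-fold lower with FK506 (adjusted p = 6.98e-09). Ccl9 was 2.71-fold lower, Ccl12 1.80-fold and Ccl24, an attractant of eosinophils, 1.63-fold. The interferon-responsive ligands of Cxcr3 were lower too, with Cxcl9 at 5.91, 5.93 and 6.03 with FK506 and 6.99, 7.15 and 6.83 without, and Cxcl10 at 8.92, 8.75 and 8.91 with FK506 and 9.77, 9.85 and 9.59 without. Genes of this family are close in sequence, so signal shared among them on the array cannot be told apart. Cxcl2, which attracts neutrophils, was not called, with a log2 difference of 0.36 (adjusted p = 0.175) at levels of 12.25, 12.10 and 12.26 with FK506 and 12.67, 12.70 and 12.34 without. The exception was Cxcl16, a membrane-bound ligand of Cxcr6. It had 9.67, 9.66 and 9.75 with FK506, 9.03, 9.22 and 8.76 with curdlan alone and 6.69, 7.27 and 7.44 in NT cells, and was 1.61-fold higher with FK506 (adjusted p = 0.0120). Its call was lost without the third curdlan array, where the difference was -0.57, and without the third FK506 array, where the adjusted p was 0.053.

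Of 42 interleukins and colony-stimulating factors tested, 7 were lower with FK506 and 0 were higher, with a median difference of 0.14. The shares over all genes were 0.762% lower and 0.361% higher. Il2, the growth factor of T cells for which calcineurin inhibitors are best known, had 9.54, 9.33 and 9.63 in cells given curdlan with FK506, 11.15, 11.19 and 10.97 in cells given curdlan and 4.97, 4.72 and 4.79 in NT cells. The groups did not overlap, and the FK506 arrays remained far above NT cells. Il2 was 3.05-fold lower with FK506 (log2 difference 1.61, SE 0.0834, adjusted p = 3.38e-08). Il12b encodes the p40 chain shared by interleukins 12 and 23, and Il23a the p19 chain of interleukin 23. Il12b had 7.22, 7.34 and 7.39 with FK506 and 9.38, 9.38 and 9.29 without, a 4.10-fold lower level (adjusted p = 1.41e-08). Il23a had 9.65, 9.63 and 9.84 with FK506, 10.77, 10.82 and 10.72 without and 6.34, 5.57 and 6.23 in NT cells. Its 2.10-fold lower level (adjusted p = 2.81e-04) was thus a smaller step than its distance from NT cells. Csf2, which encodes GM-CSF, had 6.50, 6.41 and 6.31 with FK506 and 8.13, 8.40 and 7.71 without it. NT cells had 6.20, 5.83 and 6.02, so Csf2 with FK506 stood close to its level without curdlan. Csf1, the macrophage growth factor, was 2.63-fold lower, at 9.27, 9.11 and 9.42 with FK506 and 10.68, 10.78 and 10.54 without. The interleukin 1 receptor antagonist Il1rn and the interleukin 6 family member Lif were 1.74-fold and 1.59-fold lower.

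Other inflammatory cytokines with high levels after curdlan were not called. Signals of Tnf and Il1b, like those of Cxcl2 above, lay far above the upper quartile of the gene means. Whether the array narrows differences at such signals was not tested. Tnf had 12.97, 12.89 and 12.93 with FK506, 13.13, 13.20 and 13.03 with curdlan alone and 11.26, 11.06 and 11.13 in NT cells. The groups did not overlap, yet the difference was 0.19 (SE 0.0543, adjusted p = 0.0511). Il1b had 12.38, 12.24 and 12.42 with FK506 and 12.53, 12.57 and 12.29 without, which overlapped, with a difference of 0.12 (adjusted p = 0.732). Il1bos, a transcript from the opposite strand of the Il1b locus, was nevertheless 3.27-fold lower with FK506 (log2 difference 1.71, SE 0.156, adjusted p = 7.83e-06). It had 6.34, 6.13 and 6.45 with FK506 and 8.13, 8.21 and 7.71 without it, and whether its probe set reads both strands was not tested. Il1a had a difference of 0.23 (adjusted p = 0.319). The gene of interferon gamma, Ifng, lay at 5.77, 5.85 and 6.01 with FK506 and 6.37, 6.28 and 6.42 without, a 1.39-fold difference below the fold required. Il6 and Il10 were below the lower quartile in both groups, with means of 3.50 and 3.52 for Il6 and 4.20 and 4.25 for Il10. No difference was shown in either. Calls were few at such signals: 3 of the 152 lower genes and 0 of the 72 higher genes had a mean over all arrays below the lower quartile.

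**Figure D2:**
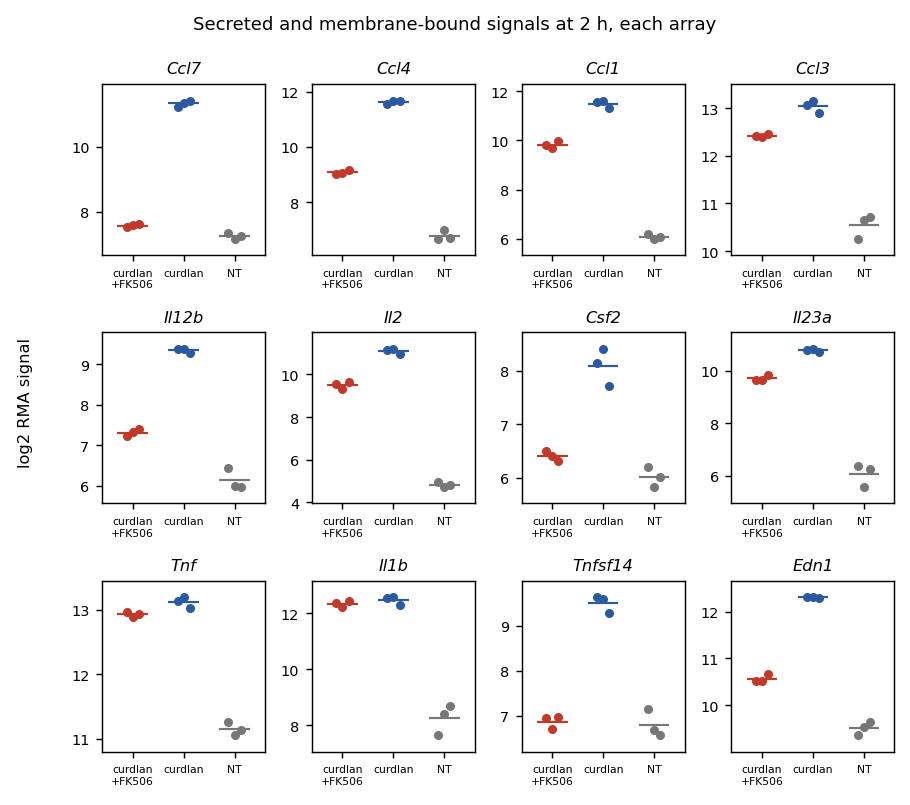
Log2 RMA signal (y axis, own scale in each panel) of 12 genes for secreted or membrane-bound signals in each of 3 arrays of cells given curdlan with FK506 for 2 h, cells given curdlan for 2 h and NT cells, with lines at the means. Ccl7 and Tnfsf14 with FK506 sit near the NT arrays, Il2 and Ccl1 between the other two groups, and Tnf and Il1b near the arrays given curdlan alone.

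Of 16 ligands of the TNF superfamily tested, 4 were lower with FK506 and 0 were higher, with a median difference of 0.19. Tnfsf14 (LIGHT), which binds the herpes virus entry mediator on T cells, had 6.94, 6.71 and 6.97 with FK506, against 9.63, 9.60 and 9.27 with curdlan alone. It was 6.17-fold lower with FK506 (log2 difference 2.62, SE 0.142, adjusted p = 4.83e-08). Tnfsf8, the CD30 ligand, was 3.30-fold lower, at 10.54, 10.44 and 10.42 with FK506 and 12.27, 12.33 and 11.96 without. Its NT arrays, at 10.43, 10.74 and 10.79, overlapped with the FK506 arrays. Tnfsf15 (TL1A) was 2.44-fold lower and Tnfsf18 (GITR ligand) 2.08-fold lower, the second at low signal, at 4.40, 4.43 and 4.41 with FK506 and 5.62, 5.70 and 5.09 without. None of the 21 TNF receptor genes tested was called, where over all genes 0.762% were lower and 0.361% higher. Among 25 growth factors and other secreted mediators, 2 were lower. Edn1, the precursor of the vasoconstrictor endothelin 1, had 10.52, 10.53 and 10.66 with FK506, 12.31, 12.31 and 12.30 with curdlan alone and 9.36, 9.54 and 9.64 in NT cells. It was 3.34-fold lower (adjusted p = 1.08e-09). Tgfb3, one of the TGF-beta ligands, was 1.51-fold lower, and its call was lost without the second FK506 array, at a difference of 0.58.

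The immediate early transcription factors are given by family. The 3 orphan nuclear receptors of the Nr4a family, which are made within minutes to hours of calcium signals, were all lower with FK506. Nr4a2 had 9.31, 9.23 and 9.35 in cells given curdlan with FK506, 11.42, 11.50 and 11.29 in cells given curdlan and 9.52, 9.45 and 9.46 in NT cells, so the FK506 arrays lay below those of NT cells. It was 4.29-fold lower with FK506 (log2 difference 2.10, SE 0.0548, adjusted p = 3.89e-11). Nr4a1 had 10.52, 10.45 and 10.60 with FK506, 12.05, 12.09 and 11.94 without and 6.70, 6.65 and 6.53 in NT cells, a 2.84-fold lower level that was still well above NT cells. Nr4a3, at 11.17, 11.07 and 11.27 with FK506 and 12.01, 12.03 and 11.86 without, was 1.74-fold lower. Among 6 EGR and NAB genes tested, 2 zinc finger factors of the EGR family were lower. Egr2 had 10.09, 10.12 and 10.15 with FK506 and 11.74, 11.76 and 11.63 without (3.0-fold lower, adjusted p = 2.77e-09), and Egr3 10.29, 10.33 and 10.37 with FK506 and 11.37, 11.49 and 11.42 without (2.14-fold lower). Klf9, a Krueppel-like factor that responds to glucocorticoids, was 2.12-fold lower and was 1 of 14 in its list.

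Of 23 AP-1 and related bZIP genes tested, 0 were lower and 1 was higher, with a median difference of 0.11. Over all genes 0.762% were lower, so a count of 0 lower is no result about this family. Of its differences 14 were positive, and at 4 h 3 members were lower and 1 higher. The gene called higher at 2 h was Fosb, a partner of Jun proteins. It had 9.73, 9.63 and 9.73 with FK506, 8.10, 8.11 and 7.99 with curdlan alone and 7.35, 6.44 and 6.67 in NT cells, so curdlan with FK506 gave the higher level of the groups at 2 h. Fosb was 3.10-fold higher with FK506 (log2 difference -1.63, SE 0.159, adjusted p = 1.44e-05). Its SD was 0.0566 with FK506, 0.0647 with curdlan alone and 0.478 in NT cells, and all groups of the series enter the SE. Among 22 NF-kB subunits and feedback genes, Nfkbid, a nuclear IkB protein, was lower, at 11.48, 11.42 and 11.54 with FK506 and 12.10, 12.14 and 11.98 without. At 1.51-fold its call lay just past the threshold and was lost without the first or second curdlan array or the second FK506 array, at differences of 0.58, 0.56 and 0.56. None of the 14 IRF and STAT genes tested was called, where over all genes 0.762% were lower and 0.361% higher. In a list of 27 chromatin modifiers tested, 2 were lower and 0 higher, with a median difference of -0.006. Jarid2, a subunit of the Polycomb complex PRC2, had 7.63, 7.62 and 7.61 with FK506, 9.13, 9.10 and 8.89 without and 8.04, 8.24 and 8.12 in NT cells (2.68-fold lower, adjusted p = 1.41e-08). Tet2, which oxidises methylated cytosine, was 1.62-fold lower. A separate list of 22 genes covers methylation at lysines 4 and 27 of histone H3, and holds the PRC2 subunit Eed but not Jarid2. None of its genes was called. With 0.762% of all genes lower and 0.361% higher, that is the usual outcome for so few genes and says little about them.

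Of the genes for calcineurin, NFAT and their regulators, 1 of 26 was called, where over all genes 0.762% were lower and 0.361% higher. Rcan1, a feedback inhibitor of calcineurin, had 7.77, 7.85 and 7.83 in cells given curdlan with FK506, 9.39, 9.50 and 9.26 in cells given curdlan and 7.88, 8.09 and 8.05 in NT cells. The FK506 arrays lay below the NT arrays and far below the curdlan arrays, and Rcan1 was 2.96-fold lower with FK506 (log2 difference 1.57, SE 0.0641, adjusted p = 3.47e-09). Nfatc1 missed the fold required. It had 10.67, 10.56 and 10.65 with FK506 and 11.25, 11.26 and 11.11 without, a 1.49-fold difference (adjusted p = 3.98e-06), and passed without the third curdlan array at a log2 difference of 0.63. Nfatc2, the NFAT protein studied in these cells, had its higher values with FK506. It had 10.51, 10.46 and 10.43 with FK506, 9.997, 10.05 and 10.01 with curdlan alone and 10.30, 10.40 and 10.40 in NT cells, a difference of -0.45 (adjusted p = 1.11e-05) below the fold required. Nfatc3, Nfatc4 and Nfat5 had differences of -0.12, 0.05 and -0.01. The catalytic chain of calcineurin is encoded by Ppp3ca, Ppp3cb and Ppp3cc, with differences of -0.23, -0.17 and 0.02, and its regulatory chain by Ppp3r1, with -0.15. Fkbp1a, the drug's own receptor, had 11.05, 11.04 and 11.02 with FK506 and 11.04, 11.07 and 11.04 without. Kinases that return phosphates to NFAT were also within narrow ranges, with differences of -0.12 for Gsk3b, 0.23 for Dyrk1a and -0.05 for Csnk1a1.

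Upstream of calcineurin, Clec7a had 10.45, 10.47 and 10.53 with FK506 and 10.40, 10.38 and 10.40 with curdlan alone (difference -0.09, adjusted p = 0.350). Of 21 genes of dectin-1 signalling, 0 were lower and 1 was higher. This was Src, the kinase after which the Src family is named, at 9.02, 8.91 and 8.97 with FK506, 8.22, 8.28 and 8.25 without and 7.92, 7.82 and 7.90 in NT cells (1.64-fold higher, adjusted p = 1.81e-07). None of the 23 genes of calcium entry and release was called, nor any of the 9 genes for other substrates of calcineurin and their partners (CRTC, MEF2 and TFEB). Calls were rare over all genes (0.762% lower and 0.361% higher), so this says little about either list. A list of 28 genes known to respond to NFAT in T cells shares genes with the lists above. It had 9 lower (Ptgs2, Nr4a2, Csf2, Il2, Egr2, Rcan1, Nr4a1, Egr3 and Nr4a3), 0 higher and a median difference of 0.18. The list was drawn up with earlier results of these data known, so its count is a description and no test of NFAT.

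The promoters of some of these genes are shown because NFAT was first described as a factor that binds the Il2 promoter. Each covers 250 bases before to 50 bases after the start of the gene, taken from RefSeq (build GRCm38.p6) and written 5′ to 3′ along the gene. Capitals mark matches on either strand to 3 motifs. The NFAT core is GGAAAA. It reads TTTTCC when it lies on the other strand. The AP-1 site is TGANTCA, where N is any base. The cyclic AMP response element is TGACGTCA, and neither of these contains the other. The first 4 genes were lower with FK506 and hold matches, Nr4a1 was lower and holds none, and Tnf was not called and holds matches.
Il2 (chr3:37125905-37126204, minus strand): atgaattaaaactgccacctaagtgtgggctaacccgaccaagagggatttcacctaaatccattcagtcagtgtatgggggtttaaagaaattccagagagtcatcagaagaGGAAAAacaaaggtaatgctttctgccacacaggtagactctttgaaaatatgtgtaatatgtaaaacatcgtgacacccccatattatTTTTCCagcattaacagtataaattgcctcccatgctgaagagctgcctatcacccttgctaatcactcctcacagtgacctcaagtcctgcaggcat
Rcan1, start within the gene (chr16:92400029-92400328, minus strand): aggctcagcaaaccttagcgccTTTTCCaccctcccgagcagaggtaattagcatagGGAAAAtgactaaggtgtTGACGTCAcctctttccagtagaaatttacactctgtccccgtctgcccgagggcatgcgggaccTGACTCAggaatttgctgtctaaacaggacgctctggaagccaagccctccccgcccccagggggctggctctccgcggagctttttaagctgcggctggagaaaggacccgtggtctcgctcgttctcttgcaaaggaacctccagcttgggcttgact
Ccl1 (chr11:82179763-82180062, minus strand): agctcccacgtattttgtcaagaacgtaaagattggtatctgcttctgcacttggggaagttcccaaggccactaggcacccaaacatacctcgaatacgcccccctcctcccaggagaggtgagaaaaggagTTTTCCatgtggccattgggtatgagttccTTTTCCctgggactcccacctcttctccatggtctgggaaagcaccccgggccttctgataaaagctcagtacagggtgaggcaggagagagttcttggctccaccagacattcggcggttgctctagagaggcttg
Mmp13 (chr9:7272264-7272563, plus strand): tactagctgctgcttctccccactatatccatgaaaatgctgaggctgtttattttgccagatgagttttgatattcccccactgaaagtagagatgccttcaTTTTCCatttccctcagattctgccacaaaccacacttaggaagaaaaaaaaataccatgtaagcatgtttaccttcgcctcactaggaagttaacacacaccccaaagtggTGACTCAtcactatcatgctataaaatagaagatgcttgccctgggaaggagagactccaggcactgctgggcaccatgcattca
Nr4a1 (chr15:101266596-101266895, plus strand): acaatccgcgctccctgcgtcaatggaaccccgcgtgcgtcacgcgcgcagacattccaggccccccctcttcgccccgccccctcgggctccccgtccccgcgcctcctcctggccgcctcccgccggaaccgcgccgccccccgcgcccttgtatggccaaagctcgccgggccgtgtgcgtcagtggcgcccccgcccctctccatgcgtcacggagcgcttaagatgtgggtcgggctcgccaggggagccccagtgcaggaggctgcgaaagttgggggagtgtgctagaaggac
Tnf (chr17:35201958-35202257, minus strand): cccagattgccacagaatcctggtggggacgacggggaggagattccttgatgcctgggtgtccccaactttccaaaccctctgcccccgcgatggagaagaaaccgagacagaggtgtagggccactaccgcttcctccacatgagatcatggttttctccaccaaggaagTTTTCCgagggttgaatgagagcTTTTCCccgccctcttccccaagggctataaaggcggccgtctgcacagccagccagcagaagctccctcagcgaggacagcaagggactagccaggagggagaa
Il2, Ccl1 and Tnf each hold 2 NFAT cores and neither of the other motifs. Rcan1 holds 2 NFAT cores, 1 AP-1 site and 1 cyclic AMP response element at this start, and Mmp13 1 NFAT core and 1 AP-1 site.

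At least 1 NFAT core was held by 33.6% of the 125 lower genes that have a promoter in the table, 25.9% of the 58 higher genes and 25% of all 15613 tested genes with one. The AP-1 site was held by 13.6% of the lower genes, 10.3% of the higher genes and 8.08% of all genes. The cyclic AMP response element was held by 7.20% of the lower genes, 5.17% of the higher genes and 2.72% of all genes. Both an NFAT core and an AP-1 site were held by 6 lower genes (4.80%), by 0 higher genes and by 2.04% of all genes. A gene with several starts counted once if any of them held the motif. These shares are a description without a test, and a match is not a bound site.

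Genes for enzymes that act outside the cell and on lipids were among those with the widest gaps. Adamts6, a secreted metalloprotease, had 5.78, 5.66 and 5.81 in cells given curdlan with FK506, 8.82, 8.63 and 8.44 in cells given curdlan and 5.72, 6.27 and 6.36 in NT cells. It was 7.36-fold lower with FK506 (log2 difference 2.88, SE 0.136, adjusted p = 1.38e-08), and the FK506 arrays overlapped with the NT arrays. Mmp13, a collagenase, had 6.32, 6.31 and 6.37 with FK506 and 9.17, 9.28 and 8.94 without (6.93-fold lower). Plau and Plat, the urokinase and tissue plasminogen activators, were 2.39-fold and 2.03-fold lower. These were the 4 called members of 34 extracellular proteases and inhibitors, where over all genes 0.762% were lower and 0.361% higher. Ptgs2, the inducible cyclooxygenase that starts prostaglandin synthesis, had 7.84, 7.83 and 8.02 with FK506, 10.10, 10.15 and 9.77 with curdlan alone and 5.995, 5.97 and 5.67 in NT cells, and was 4.33-fold lower. Hpgd, which inactivates prostaglandins, was 1.54-fold lower.

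Ch25h makes the oxysterol 25-hydroxycholesterol, which guides immune cells after further conversion. It had 8.63, 8.71 and 8.73 with FK506, 11.33, 11.34 and 11.47 with curdlan alone and 8.62, 8.88 and 8.83 in NT cells, so that the FK506 and NT arrays overlapped. Ch25h was 6.46-fold lower with FK506 (log2 difference 2.69, SE 0.0684, adjusted p = 3.50e-11). Abca1, which exports cholesterol, was 1.88-fold lower at low signal, at 5.68, 5.63 and 5.63 with FK506 and 6.49, 6.50 and 6.68 without. The other 24 of 26 genes of cholesterol and oxysterols were not called. Acod1, which makes the antimicrobial metabolite itaconate, was 2.0-fold lower. Sema7a, a membrane-anchored semaphorin that acts on monocytes and axons, had 8.16, 8.21 and 8.29 with FK506, 10.44, 10.48 and 10.39 with curdlan alone and 7.99, 7.97 and 7.98 in NT cells, and was 4.65-fold lower (adjusted p = 1.90e-12). Nrp1, a co-receptor for semaphorins and VEGF, was 1.67-fold lower. Muc16, a membrane mucin, and Jam2, a junctional adhesion molecule, were 4.31-fold and 4.20-fold lower. Mertk, a receptor for apoptotic cells, had 6.88, 7.03 and 7.04 with FK506, 8.57, 8.60 and 8.36 with curdlan alone and 7.90, 8.26 and 8.16 in NT cells, a 2.88-fold lower level with FK506 that lay below every NT array. Mertk was 1 of 7 macrophage markers, and the other 6 were not called. Nkg7, 1 of 7 NK cell markers, was 1.53-fold lower, and without 1 array at a time, the third curdlan array or any of the 3 FK506 arrays, its adjusted p was 0.0502 to 0.14.

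Of 14 dual-specificity phosphatases tested, 2 were lower with FK506 and 0 higher, with a median difference of 0.07. They were Dusp14 and Dusp2, which switch off MAP kinases, at 3.78-fold and 1.86-fold lower. Dusp14 had 7.41, 7.29 and 7.49 with FK506 and 9.33, 9.43 and 9.19 without it. Of 21 SOCS, Sprouty and RGS genes, 2 were lower and 0 higher, with a median difference of 0.02. For these lists too, the shares over all genes were 0.762% lower and 0.361% higher. Socs5, a suppressor of cytokine signalling, was 1.72-fold lower and Rgs16, a regulator of G protein signalling, 1.56-fold lower. The 29 antigen receptor adaptors and kinases were split, with 2 lower (Ubash3b and Sla), 2 higher (Grap2 and Pag1) and a median difference of -0.05. Ubash3b, a phosphatase that opposes Syk, was 1.67-fold lower, at 9.68, 9.69 and 9.74 with FK506 and 10.43, 10.46 and 10.43 without. Sla, an adaptor that limits antigen receptor signals, was 1.59-fold lower. Itpkb, which phosphorylates the calcium-releasing messenger inositol trisphosphate, had 7.03, 6.94 and 6.94 with FK506 and 8.32, 8.45 and 8.25 without (2.59-fold lower). Slc41a1, a magnesium transporter gene, had 8.83, 8.87 and 8.90 with FK506, 11.004, 11.08 and 11.08 without and 8.42, 8.58 and 8.55 in NT cells (4.55-fold lower). Slc1a4, a carrier of neutral amino acids, was 2.44-fold lower, with the FK506 arrays at 8.42, 8.44 and 8.50 below the NT arrays at 9.002, 9.07 and 9.13. Mitf, a transcription factor of melanocytes, osteoclasts and mast cells, had 8.07, 8.23 and 8.20 with FK506 and 9.89, 9.81 and 9.57 without (3.0-fold lower), and the lysosomal protease gene Ctsl 7.17, 7.31 and 7.14 with FK506 and 8.23, 8.37 and 8.34 without (2.16-fold lower). Clec4e (Mincle), a further C-type lectin that senses fungi, was 1.63-fold lower and was 1 of 19 in its list. The inducible heat shock gene Hspa1a, which has a near-identical copy, was 3.69-fold lower, and the other 9 of 10 heat shock chaperones were not called. Some called genes outside the rule for naming, chosen after their values were seen, are kinases, phosphatases or their partners. Sgk1, Plk2, Plk3 and Grk5 were 2.03-fold, 1.98-fold, 2.03-fold and 2.42-fold lower, and the phosphatases Ptpn22 and Phlpp1 2.23-fold and 2.50-fold lower.

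The 56 gene lists held 1042 tested genes, of which 62 were lower and 14 higher. Over all tested genes 0.762% were lower and 0.361% higher, so no call is the usual outcome in a short list. No gene was called in the lists of MHC class II presentation (11 tested), oxidative stress (15), the unfolded protein response (22), the BCL2 family and caspases (17), DNA replication and G1/S (28), mitosis (19), housekeeping genes (9) and ribosomal proteins (15). Actb, which encodes beta-actin, had 13.51, 13.46 and 13.51 with FK506 and 13.48, 13.49 and 13.48 without. Within MHC class II presentation the widest gap was that of the transactivator Ciita, at 11.14, 11.08 and 11.15 with FK506 and 10.62, 10.66 and 10.57 with curdlan alone (difference -0.51, below the fold required). Of 27 interferon-stimulated genes, Cxcl10 and Ifih1, a sensor of viral RNA, were lower. Without the third curdlan array some lists gained or lost 1 member: the lower members of the NFAT-responsive list were then 10, those of the calcineurin and NFAT list 2 and the higher chemokines 0.

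**Figure D3:**
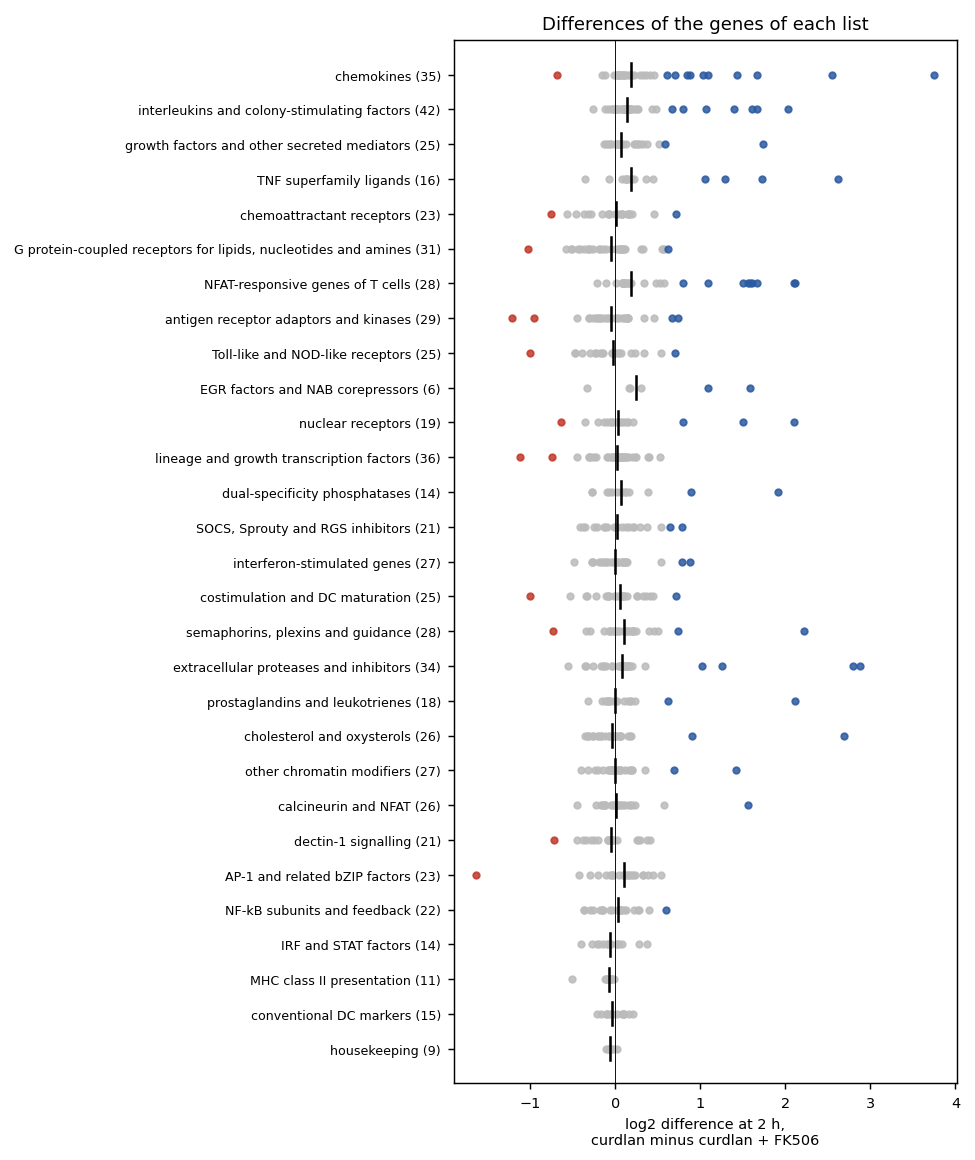
Log2 difference at 2 h, curdlan minus curdlan with FK506 (x axis, positive where lower with FK506), of each tested gene in 29 of the 56 gene lists, with the number tested in brackets and a black bar at the median. Blue points are genes called lower with FK506, red points genes called higher and grey points genes not called, and in every list drawn the median lies within 0.25 of 0.

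Of the 72 genes higher with FK506, 14 were members of the lists, among them receptors, adaptors and transcription factors. Grap2 (Gads), an adaptor that links Slp76 to receptors, had 9.75, 9.76 and 9.75 in cells given curdlan with FK506, 8.61, 8.60 and 8.42 in cells given curdlan and 8.90, 9.03 and 9.01 in NT cells. It was 2.32-fold higher with FK506 (log2 difference -1.21, SE 0.0578, adjusted p = 1.41e-08), with the FK506 arrays above both other groups. Pag1, which recruits the inhibitory kinase Csk, had 9.22, 9.27 and 9.17 with FK506 and 8.33, 8.31 and 8.15 without (1.94-fold higher). Meis1, a homeobox factor of blood progenitors, had 8.92, 8.97 and 8.94 with FK506, 7.87, 7.89 and 7.72 with curdlan alone and 8.79, 9.12 and 9.06 in NT cells. The FK506 arrays thus lay within the range of NT cells, and Meis1 was 2.17-fold higher than with curdlan alone (adjusted p = 5.61e-07). The same order held for Cnr2, the cannabinoid receptor of immune cells, at 8.33, 8.18 and 8.17 with FK506, 7.24, 7.31 and 7.04 with curdlan alone and 7.97, 8.35 and 8.29 in NT cells. Cxcr4, the receptor of Cxcl12, had 8.79, 8.65 and 8.81 with FK506, 7.99, 7.95 and 8.04 with curdlan alone and 8.65, 8.69 and 8.65 in NT cells, and Bcl6, a transcriptional repressor, had 8.46, 8.36 and 8.39 with FK506, 7.71, 7.72 and 7.54 with curdlan alone and 8.28, 8.57 and 8.61 in NT cells. They were 1.69-fold and 1.68-fold higher with FK506.

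In other genes the FK506 arrays lay above both the curdlan and the NT arrays. Nod2, an intracellular sensor of bacterial cell walls, had 8.64, 8.64 and 8.61 with FK506, 7.62, 7.72 and 7.52 with curdlan alone and 7.45, 7.46 and 7.47 in NT cells, and was 2.01-fold higher with FK506 (log2 difference -1.01, SE 0.0472, adjusted p = 1.33e-08). Pdcd1lg2 (PD-L2), an inhibitory ligand for T cells, had 8.30, 8.28 and 8.30 with FK506, 7.40, 7.46 and 7.01 with curdlan alone and 7.19, 7.48 and 7.63 in NT cells (2.01-fold higher). The vitamin D receptor gene Vdr was 1.56-fold higher, at 8.94, 8.97 and 9.05 with FK506 and 8.32, 8.32 and 8.41 without, and the interleukin 21 receptor gene Il21r 1.55-fold higher, at 10.94, 10.87 and 10.98 with FK506 and 10.30, 10.21 and 10.38 without. Rnf180, a ubiquitin ligase gene, had 9.91, 9.86 and 9.91 with FK506, 9.02, 8.96 and 9.06 without and 8.45, 8.51 and 8.51 in NT cells (1.84-fold higher). The class I gene H2-K2 was 1.84-fold higher, and its signal cannot be told apart from that of closely related class I genes. Sema4b, a transmembrane semaphorin, was 1.66-fold higher, opposite to Sema7a. Pgf, a growth factor of the VEGF family, had 10.98, 10.87 and 10.97 with FK506, 10.20, 10.22 and 9.88 without and 10.60, 10.76 and 10.69 in NT cells (1.79-fold higher).

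**Figure D4:**
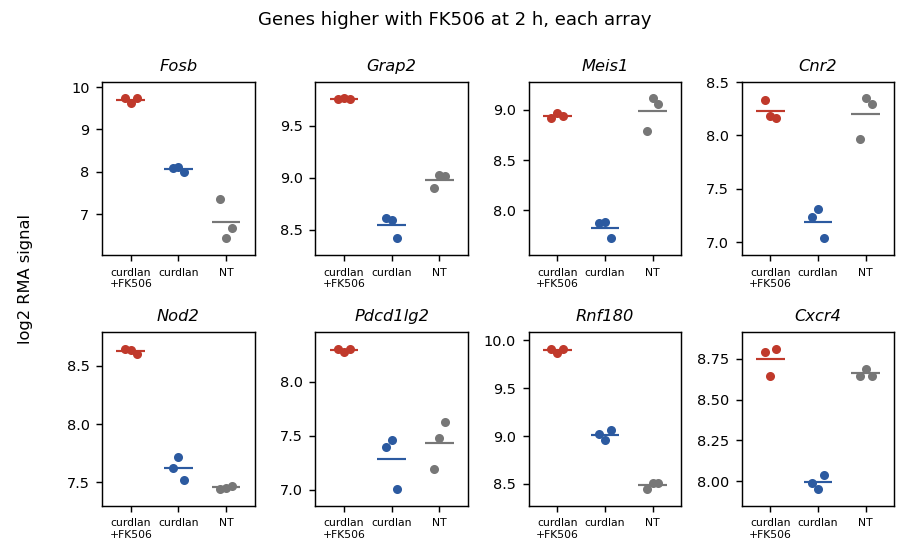
Log2 RMA signal (y axis, own scale in each panel) of 8 genes called higher with FK506, in each of 3 arrays of cells given curdlan with FK506 for 2 h, cells given curdlan for 2 h and NT cells, with lines at the means. For Meis1, Cnr2 and Cxcr4 the arrays with FK506 lie near the NT arrays, and for Fosb, Grap2, Nod2, Pdcd1lg2 and Rnf180 they lie above both other groups.

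A further 3 arrays of cells given curdlan with FK506 and 3 of cells given curdlan alone were taken at 4 h, so that the 2 h differences can be set against separate measurements. At 4 h 306 genes were lower with FK506 (1.53%) and 42 were higher (0.211%). Of the 152 genes lower at 2 h, 94 were lower at 4 h as well, which is 61.8% of the 2 h genes and 30.7% of the 4 h genes. Of the 72 genes higher at 2 h, 13 were higher at 4 h, 18.1% of the 2 h genes and 31.0% of the 4 h genes. The difference between the times was itself tested across all genes and was called for 246 (1.23%). It was called for 44 of the 152 lower genes and 18 of the 72 higher ones. Among the genes called at 2 h and not at 4 h in the same direction, the times differed for 18 of 58 lower and 18 of 59 higher genes, so that for most of them a different effect at 4 h was not shown.

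Genes with a wider gap at 2 h than at 4 h included Sema7a, with a log2 difference of 2.22 at 2 h and 0.89 at 4 h (difference between times 1.33, SE 0.0602, adjusted p = 3.80e-08). Itpkb, at 1.37 and -0.01, was level between the groups at 4 h, where means were 6.94 with FK506 and 6.93 without. Frmd4b, which encodes a scaffold protein with a FERM domain, had 1.42 at 2 h and 0.24 at 4 h, Jarid2 1.42 and 0.35, and Rcan1 1.57 and 0.69. For Ccl7 the difference was 3.75 at 2 h and 2.87 at 4 h. Cxcl9 went the other way, with 1.03 at 2 h and 3.68 at 4 h, where cells given curdlan with FK506 averaged 6.10 and cells given curdlan 9.78. Csf2 had 1.67 and 2.94, and Abhd12b 0.60 and 3.43. At 2 h the call of Abhd12b was lost without the first curdlan array, the first FK506 array or the third FK506 array, at differences of 0.56 to 0.57. Of the 27 interferon-stimulated genes, 23 were lower with FK506 at 4 h, against 2 at 2 h. The gap of Il2 (1.61 and 1.83) and of Fosb (-1.63 and -1.46) did not pass the test of a difference between times (adjusted p = 0.342 and 0.663). Nod2, Cxcr4 and Vdr were higher with FK506 at 2 h and had differences of -0.22, 0.02 and 0.13 at 4 h, with a called difference between times for each. A single gene was called in opposite directions, Slfn1, a regulator of T cell growth outside the naming rule. It was higher with FK506 at 2 h, at 6.78, 6.83 and 6.96 against 6.14, 6.14 and 6.36 with curdlan alone, and lower at 4 h, where the means were 7.26 with FK506 and 8.14 without. Its call at 2 h was lost after centring on probe sets with no gene symbol, where the difference was -0.58, just short of the fold required.

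**Figure D5:**
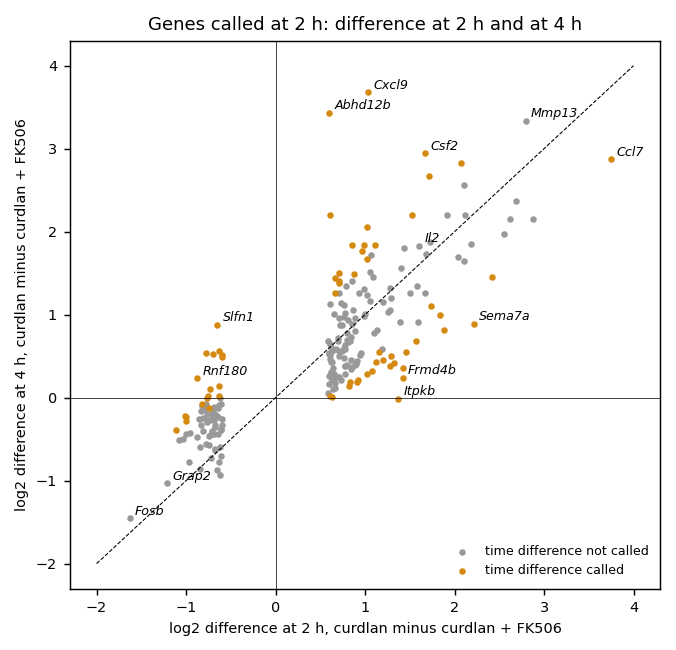
Log2 difference, curdlan minus curdlan with FK506, at 2 h (x axis) and at 4 h (y axis) of the 224 genes called at 2 h, with the dashed line at equal differences. Orange points are genes whose difference between the times was called, such as Sema7a and Itpkb below the line and Cxcl9 and Abhd12b above it.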

How the data were processed

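Signals of D1 cells were measured on Affymetrix Mouse Gene 1.0 ST arrays, 3 for each of 5 groups, and samples were grouped by their labels. The log2 values were deposited by the authors after RMA with affy in R 2.15.2, which corrects background, equalises the distributions of arrays by quantile and summarises probes. Quantile normalization hides a shift of all genes at once. Of 34760 probe sets, 21640 had 1 gene symbol in the platform annotation, 1321 had several and 11799 had none. Those with a single symbol entered the test, and where a gene had more than 1 (954 genes) its brightest probe set on average stood for it, giving 19937 genes. No filter on low values was applied and 0 columns were left unmapped. The number of arrays limits the precision.

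A linear model with group means over 15 arrays was fitted by limma 3.58.1 under R 4.3.3 (10 residual degrees of freedom, empirical Bayes, two-sided, Benjamini-Hochberg over all genes). Calls required an adjusted p under 0.05 and a fold of at least 1.5, as in the study's methods. The fit was tested on simulated data. The named genes were the 25 called genes with the largest difference each way, called list members, all calcineurin and NFAT genes, a fixed set, and, in lists with no call, up to 2 members. The 25 each way were taken from called genes whose curdlan and FK506 arrays at 2 h did not overlap. The text gives those it describes. Members, lists and tests were chosen with earlier results of these data known. Lists held 1131 genes and share members, and 4 older symbols were updated. Promoters came from RefSeq (GRCm38.p6) and matched 183 of 224 called genes. Replicate numbers did not pair the arrays: same-numbered deviations at 2 h correlated at 0.22, -0.28 and -0.06. Alternatives covered scaling, filters, probe set choice, the model, thresholds and leaving out arrays.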

Additional observations from a re-analysis of the deposited data

Results flagged for a closer look

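A difference between the times was tested for the FK506 effect (2 h minus 4 h of the log2 differences, limma), and 246 genes passed. Of the genes named here, 47 did, 17 with a wider positive or less negative difference at 2 h and 30 the other way. Among genes lower with FK506 at 2 h, the change between times was 1.38 for Itpkb, 1.33 for Sema7a, 1.18 for Frmd4b, 1.07 for Jarid2, 1.07 for Hspa1a, 0.97 for Spin4 and 0.91 for Phlpp1. It was 0.88 for Rcan1, 0.88 for Ccl7, 0.84 for Gm6377, 0.78 for Slc1a4, 0.76 for Klf9, 0.74 for Sgk1, 0.72 for Abca1, 0.63 for Edn1 and 0.61 for Ptpn22. Arhgap19, not called at 2 h, had 1.26.

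Genes lower at 2 h whose gap was wider at 4 h had negative values, with -2.84 for Abhd12b, -2.65 for Cxcl9, -1.27 for Csf2, -0.99 for Ccl12, -0.96 for Il1bos, -0.79 for Ccl24 and -0.76 for Jam2. Smaller values were -0.73 for Ctsl, -0.68 for Mertk, -0.67 for Ccrl2, -0.66 for Plat, -0.61 for Cxcl10 and -0.59 for Lif. Genes not called at 2 h with a gap at 4 h were Olr1 at -2.97, Scnn1g at -2.62, Ifit3b at -2.09, Tnfrsf4 at -1.27, Il6 at -0.85 and Il1a at -0.66. Among genes higher with FK506 at 2 h, Slfn1 had -1.53, Rnf180 -1.11, Nod2 -0.78, Pdcd1lg2 -0.77, Vdr -0.77, Cxcr4 -0.77 and Spata13 -0.75. Meis1 had -0.73, Galnt9 -0.71, Il21r -0.66 and Bcl6 -0.62.

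Probe sets outside the gene-level test also carried differences at 2 h. Of 1321 probe sets with several gene symbols, 11 passed the same thresholds, 6 lower and 5 higher with FK506. Of 11799 probe sets with no symbol, 27 passed, 13 lower and 14 higher.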

How the results depend on the processing

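Among the alternatives, only those that moved a threshold changed a count by over 1.5 times. With no fold threshold, 616 genes were lower and 893 higher with FK506 at 2 h, 2327 were called at 4 h and 872 for the difference between times. At a fold of at least 2 these counts were 61, 7, 117 and 65. Leaving out each array in turn gave 148 to 162 lower and 62 to 87 higher genes at 2 h, 341 to 355 at 4 h and 216 to 281 for the difference between times. With the replicate block, counts were 151 and 71 at 2 h, 347 at 4 h and 234 for the difference. Without both arrays that stood apart, they were 164 and 65, 355 and 253. Single differences of 191 genes were followed over the alternatives that kept the thresholds. There 49 values no longer passed and 7 newly passed. The sign reversed in 0 cases where a gene was called in either fit, and sign changes of genes called in neither fit were not counted. After centring on array medians, Ccl3, Tgfb3, Gpr35, Nfkbid, Rgs16, Hpgd, Nkg7 and Abhd12b no longer passed, and after repeated quantile normalization Vdr, Hpgd, Nkg7 and Abhd12b. After centring on probe sets with no symbol Il21r, Vdr, Slfn1 and Nkg7 no longer passed. Tgfb3 and Nkg7 no longer passed with array weights, Nkg7 with the replicate block, Cxcl16 and Nkg7 without both arrays that stood apart, and Mir694 in a fit of the compared groups alone. With the mean of a gene's probe sets, Crybg1 had a difference of -0.42 and no longer passed. Nfatc1 newly passed after repeated quantile normalization, after centring on probe sets with no symbol, with array weights and without the third curdlan array, the first FK506 array or the third FK506 array, at 0.59 to 0.65. The cause was not tested.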
